A study of Mus musculus with 6 samples.

Results

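The immunity-related GTPases (IRG) and the guanylate-binding proteins (GBP) were followed through 9 mouse genes, Iigp1, Igtp, Irgm1, Irgm2 and Ifi47 of the first family and Gbp2, Gbp2b, Gbp3 and Gbp7 of the second. Every probe set annotated to exactly 1 of these symbols was used, which gave 12 probe sets for 9 of the 12393 genes on the array. The genes were chosen by their measured signals on these same arrays, which were low after imatinib in both fusion lines and high in the untreated fusion lines. Their levels and ratios are therefore a description, and no test was made on them.

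Both families are large GTPases that interferon gamma induces in mouse cells, mainly through transcription factors of the STAT and IRF families. Their products gather on the vacuoles that hold intracellular bacteria and parasites and help to break them open. Some IRG proteins act as effectors at the vacuole, while the IRGM proteins sit on the cell's own membranes and keep the effectors inactive there. The families are best known from macrophages and other cells under infection, and less from growth-factor dependent blood cell lines.

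The 6 arrays held RNA from Ba/F3, a mouse line described as pro-B cells that depends on interleukin 3 (IL3). The groups were cells with the empty pMSCV vector kept in IL3, cells with pMSCV-ETV6-PDGFRB and cells with pMSCV-FIP1L1-PDGFRA, each untreated or given 100 nM imatinib (Glivec) for 4 h, with 1 array per group. Serum was at 10% in all groups. The fusion genes encode constantly active PDGF receptor kinases that imatinib inhibits. The sample labels call the fusion lines selected, without naming the agent, and name IL3 for the vector cells only. By these labels the vector cells differ from the fusion lines in IL3 and selection as well as in the fusion gene. These cannot be told apart in any comparison between lines.

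The trimmed mean signal was 100.0 on all arrays, and 49.8% to 50.6% of probe sets exceeded the signal floor of 20.1, which is set at the middle of the signals. Actin probe sets had 3' to 5' signal ratios from 1.12 to 1.22, and Gapdh probe sets from 0.754 to 0.802. Of the listed pro-B cell and growth receptor markers, the IL3 receptor genes Csf2rb (1193 to 1616) and Csf2rb2 (1396 to 2010) were far above the floor. Cd79a and Cd79b lay between 37.2 and 121, and 8 of 14 markers, among them Pax5, Ebf1 and Rag1, stayed below the floor on all 6 arrays. Of 8 macrophage markers 6 were below the floor throughout, and so were 9 of 11 T and NK cell markers and 4 of 5 dendritic cell markers. Over all genes, only 7018 of 12393 were above the floor on at least 1 array. Genes below it throughout were thus common, and nothing is read from these counts about cell type. Gzmb, a granzyme gene on the T and NK cell list, was at 1584 to 3793. Zap70, the other readable gene of that list, was 60.6 and 52.1 in vector cells, 25.1 and 87.8 in ETV6-PDGFRB cells, and 48.7 in untreated FIP1L1-PDGFRA cells, with the treated array under the floor. Cd74 of the dendritic cell list was 49.0 and 26.2 in ETV6-PDGFRB cells and at most 27.4 elsewhere. The summed signal of the macrophage list was 369 and 385 in vector cells, 125 and 115 in ETV6-PDGFRB cells, against 341 and 249 in FIP1L1-PDGFRA cells, untreated first. Its differences between arrays came mainly from Adgre1, which ran from 46.2 to 305, while Csf1r, the other readable gene, was within 2-fold on all arrays with 30.9 as its lowest signal. The part of these genes in the results was not tested.

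Start sites of most members carried short motifs linked to interferon signalling, shown here because most members carry the first of them. The members belong to families known to be induced by interferon, so the motifs are a description and no independent support. The windows, from RefSeq (GRCm38.p6), span 250 bases before to 50 after each annotated start and were used for the 8 members other than Iigp1. An ISRE-type motif, the core of an element bound by IRF proteins, was searched on both strands as 2 runs of GAAA parted by any 2 bases. A GAS motif, the element bound by STAT dimers, was searched as TTCNNNGAA, which reads the same on both strands. The 8 members had 9 windows. The ISRE-type motif was found in 7 of them, each of another member, against 3.44% of 32851 windows in the genome table. GAS was found in 3 of them, each of another member, against 8.30%. The stretches of 60 bases around the ISRE-type matches follow, 5′ to 3′ along each gene, with the matches in capitals.
Igtp, chr11:58199496-58199555, plus strand: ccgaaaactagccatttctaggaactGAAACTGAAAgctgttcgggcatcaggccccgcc
Irgm2, chr11:58214888-58214947, plus strand: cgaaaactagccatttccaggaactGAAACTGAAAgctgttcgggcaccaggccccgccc
Irgm1, chr11:48871421-48871480, minus strand: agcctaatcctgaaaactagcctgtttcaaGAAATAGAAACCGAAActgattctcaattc
Gbp2, chr3:142620579-142620638, plus strand: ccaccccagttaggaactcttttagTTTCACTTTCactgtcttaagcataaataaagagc
Gbp2b, chr3:142594685-142594744, plus strand: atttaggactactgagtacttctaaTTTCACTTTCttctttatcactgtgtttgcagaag
Gbp3, chr3:142559977-142560036, plus strand: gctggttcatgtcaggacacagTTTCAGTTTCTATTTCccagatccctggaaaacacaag
Gbp7, chr3:142530258-142530317, plus strand: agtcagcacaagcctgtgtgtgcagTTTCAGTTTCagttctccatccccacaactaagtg

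Irgm1 and Gbp3 each held 2 ISRE-type matches that overlap, and the other 5 members held 1. The neighbouring genes Igtp and Irgm2 were alike in 57 of 59 bases when aligned at the match, so their matches are not independent of each other. In both, a GAS match lay just before the ISRE-type match, from 45 to 37 bases before the start in Igtp and from 75 to 67 in Irgm2. The GBP members also lie in 1 cluster. Gbp2 and Gbp2b had the same letters in their match, and Gbp7 shared its letters with 1 of the Gbp3 matches. The GBP windows were not aligned, so whether their matches are independent of each other was not tested. Gbp7 held 2 GAS matches, and no GAS match overlapped an ISRE-type one. Ifi47 held neither motif in this window, and the second annotated start of Gbp3 held neither as well. A match is a run of letters and does not show that a factor binds there.

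**Figure D1:**
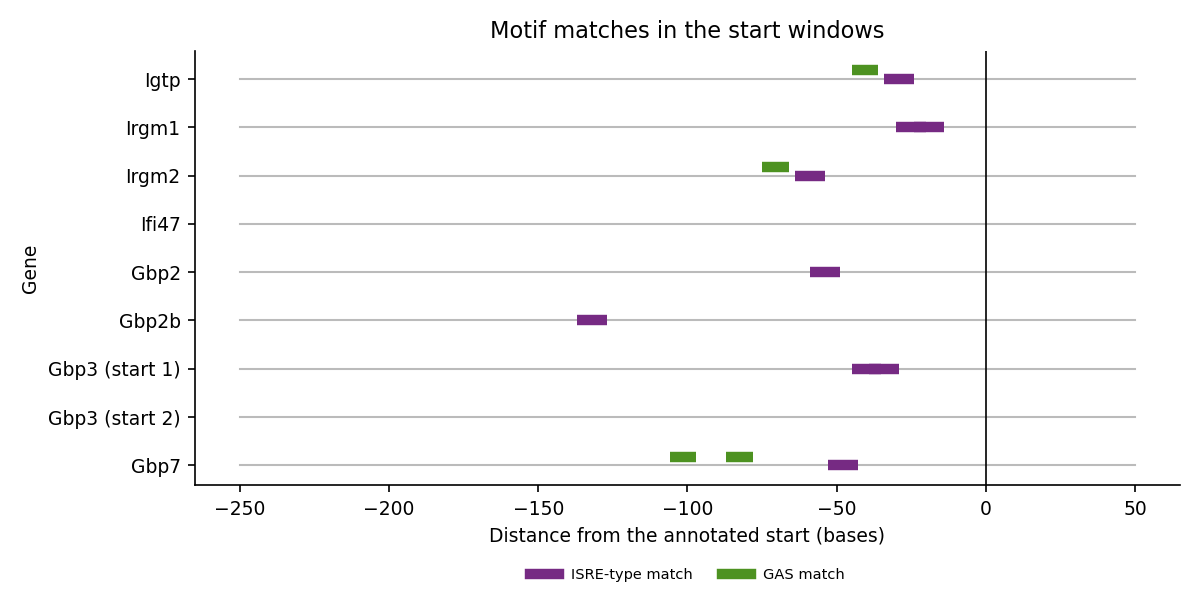
Positions of ISRE-type (purple) and GAS (green) matches along the start windows of 8 members, in bases from the annotated start at 0. The ISRE-type matches of 6 of the 7 members lie within the last 64 bases before the start, and that of Gbp2b begins 137 bases before it.

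With imatinib, signals of all 9 GTPase genes were lower in both fusion lines and within 2-fold in vector cells wherever they could be read. In ETV6-PDGFRB cells 9 of 9 members were at least 2-fold lower, where 2.86% of 6852 genes were. In FIP1L1-PDGFRA cells 9 of 9 were as well, where 2.97% of 6743 genes were, and 1.9% of 6640 genes were at least 2-fold lower in both lines. Since these contrasts chose the members, nothing is read from the counts. Over the members the log2 ratios had medians of -2.72 (ETV6-PDGFRB) and -2.69 (FIP1L1-PDGFRA), against 0.03 and 0.05 over all genes. In these bulk samples, fewer expressing cells and less RNA per cell cannot be told apart.

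Iigp1, also called Irga6, is an effector IRG protein that coats parasite vacuoles. Its signal was 1476 untreated and 45.9 with imatinib in ETV6-PDGFRB cells, against 617 and 36.7 in FIP1L1-PDGFRA cells. On the vector arrays it was 11.3 and 12.8, both below the floor. Imatinib thus left 3.11% and 5.95% of the untreated signal, and the log2 ratios of -5.01 and -4.07 were the lowest of the 6449 and 6365 genes above the floor on both arrays of the line. A second Iigp1 probe set went from 789 and 262 to below the floor, at least 39.3-fold and at least 13.1-fold lower.

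Igtp, or Irgm3, and Irgm2 are IRGM proteins of the endoplasmic reticulum and Golgi membranes. Igtp was 2015 before and 112 after imatinib in ETV6-PDGFRB cells, against 861 and 135 in FIP1L1-PDGFRA cells, and 47.8 and 36.4 in vector cells. Its signal was 18.0-fold lower with the drug in the first line and 6.40-fold lower in the second, a gap of -1.49 on the log2 scale between the lines. Irgm2 showed a gap of -1.02 in the same direction. Irgm2 signals were 534 and 39.3 in ETV6-PDGFRB cells, against 360 and 53.8 in FIP1L1-PDGFRA cells, and below the floor on both vector arrays. For both genes the treated ETV6-PDGFRB array was lower than the treated FIP1L1-PDGFRA array, the reverse of the untreated arrays.

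Irgm1, a regulator of the other IRG proteins that is also needed for autophagy and blood stem cell upkeep in mice, had near-equal ratios in the fusion lines. Its signals were 760 and 115 in ETV6-PDGFRB cells, against 607 and 90.9 in FIP1L1-PDGFRA cells, and 57.9 and 58.4 in vector cells. The drug left 15.1% and 15.0% of the signal, and the log2 ratios of the lines differed by 0.02. Ifi47, or Irgd, is an IRG protein of the effector type. It was 1303 and 217 in ETV6-PDGFRB cells, against 771 and 119 in FIP1L1-PDGFRA cells, and 23.2 and 24.0 in vector cells, with 16.7% and 15.5% of the signal left in the fusion lines. Both genes kept to the same order, in which untreated fusion arrays came first, treated fusion arrays next and vector arrays last.

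**Figure D2:**
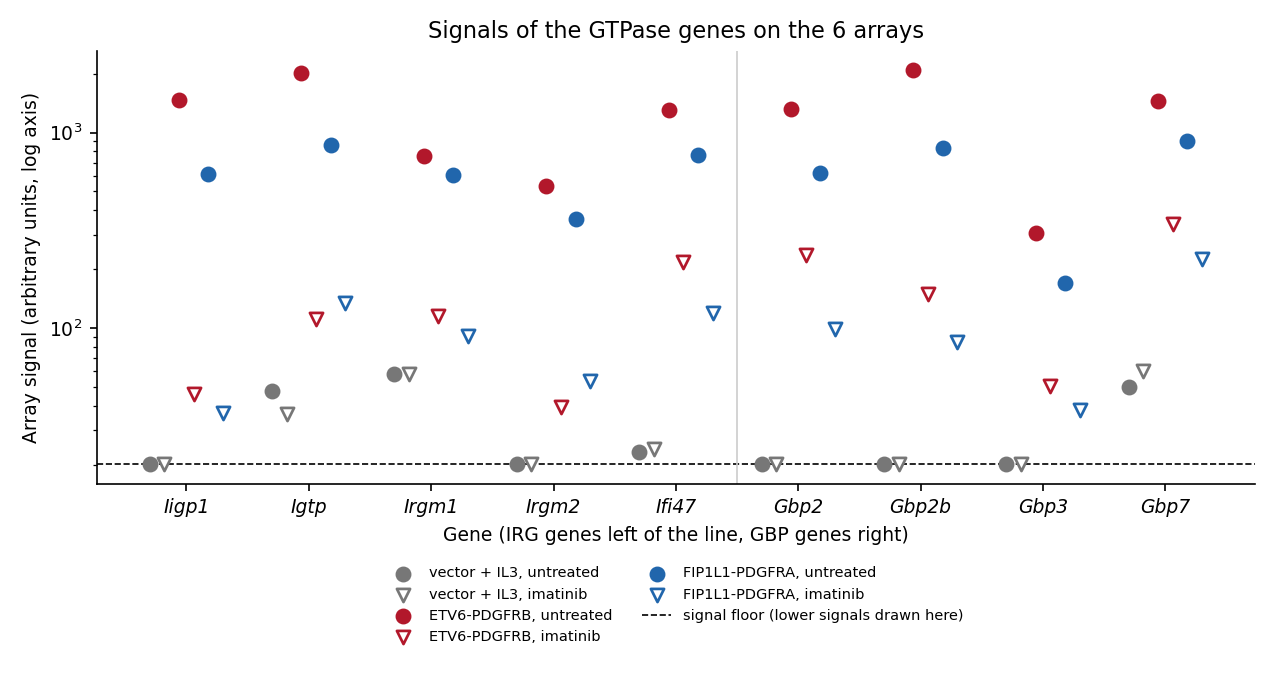
Array signal (log axis, arbitrary units) of each member's main probe set on the 6 arrays, with filled circles for untreated cells, open triangles for imatinib, and a dashed line at the floor of 20.1, to which lower signals were set. For each gene the untreated fusion arrays are highest and the vector arrays lowest.

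Among the GBP genes, Gbp2b, which encodes mouse GBP1, had the lowest ratios. Its signals were 2078 and 148 in ETV6-PDGFRB cells, against 832 and 85.2 in FIP1L1-PDGFRA cells, and below the floor on both vector arrays. That is 14.0-fold and 9.77-fold lower with the drug, leaving 7.14% and 10.2% of the untreated signal. Gbp2, a GBP with a lipid anchor at its end, was 1319 and 235 in ETV6-PDGFRB cells, against 618 and 98.8 in FIP1L1-PDGFRA cells, or 5.62-fold and 6.25-fold lower. It was below the floor in vector cells. A second Gbp2 probe set, of a type whose probes can match other transcripts as well, gave 4.64-fold and 6.68-fold.

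Gbp3 had signals of 307 and 50.3 in ETV6-PDGFRB cells, against 170 and 38.1 in FIP1L1-PDGFRA cells, or 6.10-fold and 4.45-fold lower, and was below the floor in vector cells. Gbp7, which in mice helps to assemble the oxidase that kills engulfed bacteria, was 1447 and 341 in ETV6-PDGFRB cells, against 906 and 226 in FIP1L1-PDGFRA cells, and 49.9 and 60.5 in vector cells. Its log2 ratios, -2.08 and -2.01, were the closest to 0 of the members. The 2 probe sets of Gbp7 disagreed in ETV6-PDGFRB cells, where the other one went from 569 to 68.8 and was 8.27-fold lower against 4.24-fold. They gave 4.48-fold and 4.02-fold in FIP1L1-PDGFRA cells. GBP genes resemble each other in sequence, and how far the probe sets tell them apart was not tested.

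By family, the median log2 ratio with imatinib was -3.77 for the 5 IRG genes and -2.55 for the 4 GBP genes in ETV6-PDGFRB cells. In FIP1L1-PDGFRA cells the medians were closer, at -2.74 and -2.40. Within each family the ratios ranged widely in the first line, from -5.01 to -2.59 for IRG and from -3.81 to -2.08 for GBP. Of the 9 members, 6 had the lower ratio in ETV6-PDGFRB cells. The differences between the lines ran from -1.49 for Igtp to 0.15 for Gbp2, and with 1 array per group they were not tested.

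In vector cells only 4 members had a signal above the floor, so only these have a ratio. Of the 4, 0 were past 2-fold, where 0.0599% of 6674 genes were at least 2-fold lower and 0.0749% at least 2-fold higher. The log2 ratios were -0.40 for Igtp, 0.013 for Irgm1, 0.046 for Ifi47 and 0.28 for Gbp7. The SD over all genes in this pair was 0.19, which the ratios of Igtp and Gbp7 exceeded in size. Igtp, lower as in the fusion lines, was 127th lowest of the 6436 genes above the floor on both arrays, and Gbp7 450th highest. The other Gbp7 probe set moved the opposite way to the first, from 22.6 to 19.0 and so below the floor. For the 5 members below the floor, a lower level with the drug could not have been seen.

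**Figure D3:**
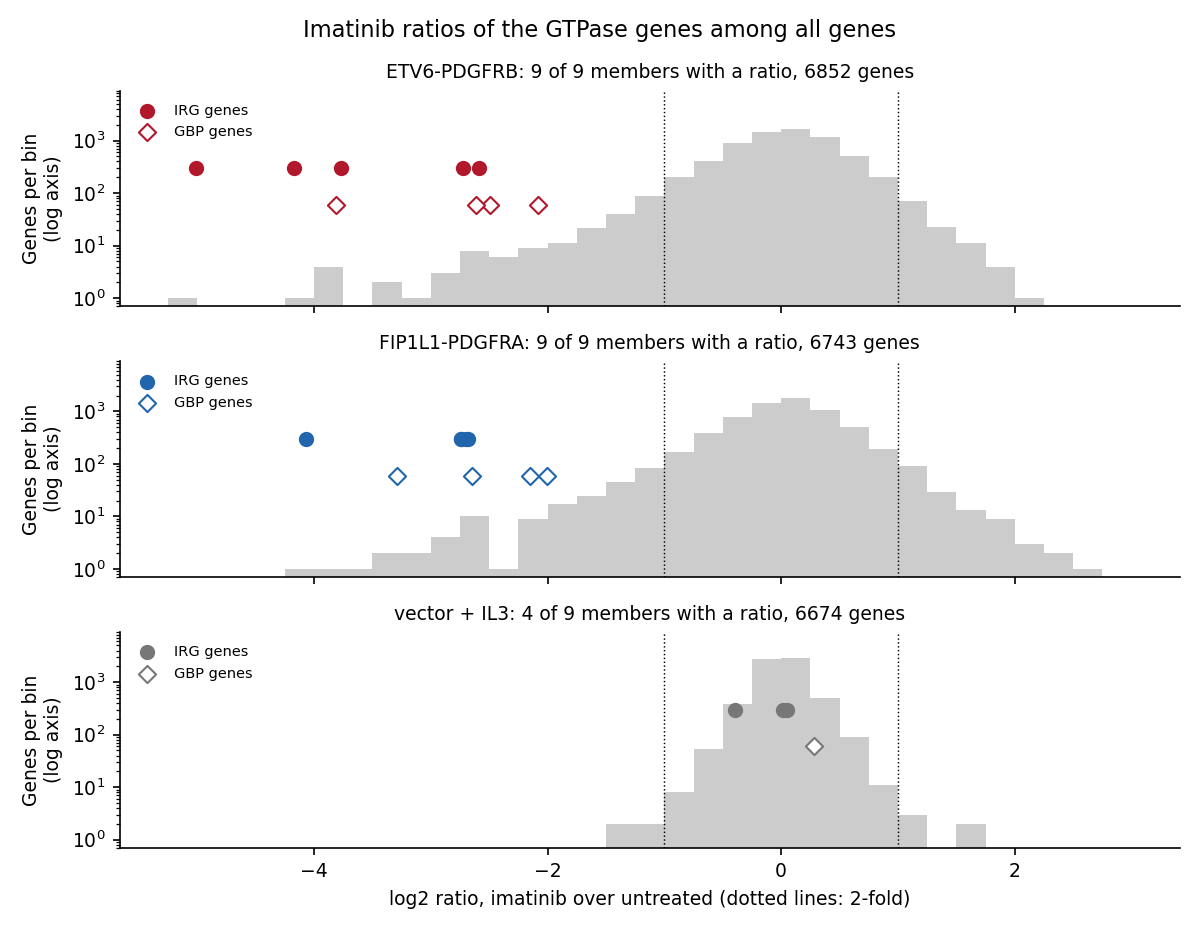
Log2 ratios of imatinib over untreated cells for the members (circles IRG, diamonds GBP, height without meaning) over histograms of all genes with a ratio (log axis), 1 panel per line. In the fusion lines the members lie between -5.01 and -2.01, left of the 2-fold line, and in vector cells the 4 readable members lie between -0.40 and 0.28.

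Without the drug, each GTPase gene had more signal in either fusion line than in the vector line. In ETV6-PDGFRB cells 9 of 9 members were at least 2-fold higher, where 2.24% of genes were, and in FIP1L1-PDGFRA cells 9 of 9, where 1.82% were. These contrasts too were known when the members were chosen, and both use the same vector array. Among members above the floor in all 3 lines, Ifi47 was 56.1-fold and 33.2-fold higher, though its vector signal of 23.2 was just above the floor. With the floor at the 60th percentile its log2 ratios became bounds of 4.94 and 4.18, against 5.81 and 5.05. Igtp was 42.1-fold and 18.0-fold higher, Gbp7 29.0-fold and 18.2-fold, and Irgm1 13.1-fold and 10.5-fold. The other 5 have lower bounds, which were 73.5-fold and 30.7-fold for Iigp1. The bounds were 65.7-fold and 30.8-fold for Gbp2, 26.6-fold and 17.9-fold for Irgm2, and 15.3-fold and 8.44-fold for Gbp3. Gbp2b had bounds of 103.5-fold and 41.4-fold.

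After 4 h of imatinib the members did not all come down to the level of vector cells. Each of the 9 had a higher signal on both treated fusion arrays than on both vector arrays. Against treated vector cells, 7 of 9 members were at least 2-fold higher in treated ETV6-PDGFRB cells, where 4.43% of genes were, and 6 of 9 in treated FIP1L1-PDGFRA cells, where 2.23% were. With the floor at the 40th percentile these counts were 8 of 9 and 8 of 9. At the 60th percentile fewer members had a ratio, and the counts were 5 of 8 and 5 of 7.

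The genes differed in how much remained above vector cells. Gbp2 was at least 11.7-fold above vector cells in treated ETV6-PDGFRB cells and at least 4.92-fold above them in treated FIP1L1-PDGFRA cells. Ifi47 was 9.05-fold and 4.97-fold higher, and Gbp7 5.64-fold and 3.73-fold. Irgm1 came closest to the vector level among the members with 2 measured signals, at 1.97-fold and 1.56-fold. Iigp1, with the lowest imatinib ratios, had bounds, set by the floor, of at least 2.28-fold in the first line and at least 1.83-fold in the other.

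**Figure D4:**
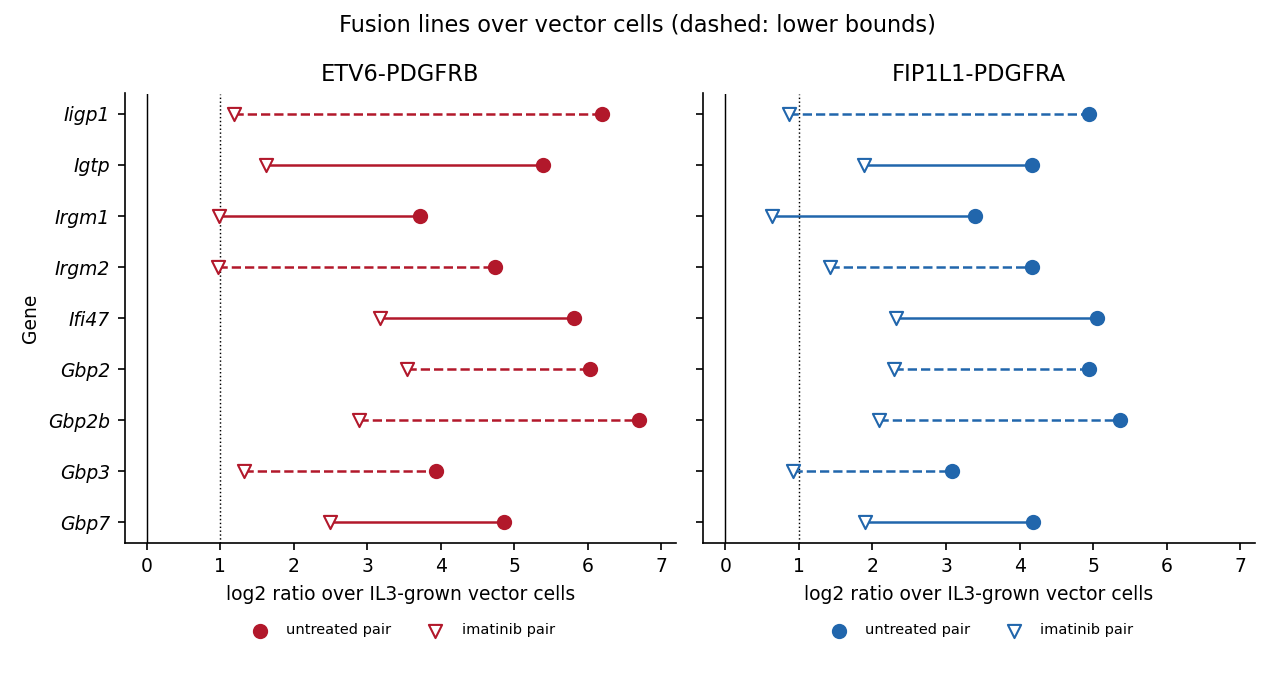
Log2 ratio of each member in ETV6-PDGFRB (left) and FIP1L1-PDGFRA cells (right) over IL3-grown vector cells, for the untreated pair (circles) and the imatinib pair (triangles), with dashed lines for lower bounds. Irgm1 ends below the dotted 2-fold line in both panels, while Igtp, Ifi47, Gbp2, Gbp2b and Gbp7 end above it in both.

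Between the fusion lines, untreated signals of 9 of 9 members were higher in ETV6-PDGFRB than in FIP1L1-PDGFRA cells. The 4 members past 2-fold, where 0.87% of genes were, were Gbp2b (2.50-fold), Iigp1 (2.39-fold), Igtp (2.34-fold) and Gbp2 (2.14-fold), and Irgm1 was the closest at 1.25-fold. With scaling to the hybridization controls only 1 member stayed past 2-fold. With imatinib, 7 of 9 members were higher in ETV6-PDGFRB cells and Igtp and Irgm2 were lower. Only Gbp2 was past 2-fold then, at 2.38-fold, where 0.665% of genes were.

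The signals of the 9 members moved together over the arrays, which their selection favours. Pearson's r between pairs of members ranged upward from 0.92 with a median of 0.98 over 36 pairs, each over 6 arrays of 3 lines. Of 115 other genes with signals above the floor on at least 3 arrays and a range of at least 2 on the log2 scale, 10 were closest to the mean profile of the members. They were Parp14 (r = 0.995), Zbp1 (0.991), Rtp4 (0.988), Erap1 (0.986), Stat2 (0.984), Tapbpl (0.979), Helz2 (0.976), Gm20559 (0.974), Irf1 (0.971) and Psmb10 (0.971). Zbp1 encodes a sensor of Z-form nucleic acid, Erap1 and Tapbpl act in peptide loading of MHC class I, and Psmb10 is a subunit of the immunoproteasome. Parp14, the closest, had signals of 24.7 and 27.8 in vector cells, 304 and 51.9 in ETV6-PDGFRB cells, against 197 and 51.6 in FIP1L1-PDGFRA cells. The r values describe 6 arrays and carry no test.

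Of the nearest non-family genes on the array beside the members, none was past 2-fold in both the imatinib and the untreated line comparisons. Over all genes, 2.86% and 2.97% were at least 2-fold lower with imatinib in the fusion lines. In the untreated fusion lines, 2.24% and 1.82% were at least 2-fold higher than in vector cells. The result therefore does not set the neighbours apart from other genes. Some neighbours are not adjacent, as 5 genes that the array does not hold were passed over to reach Isoc1 and 5 to reach Zfp62. Other genes inside the cluster of Irgm1 and Ifi47 were not compared. The GBP members form 1 cluster on chromosome 3, flanked by Pdlim5 and Kyat3. Pdlim5 was 1090 and 544 in ETV6-PDGFRB cells, against 1096 and 675 in FIP1L1-PDGFRA cells, but 905 and 967 in vector cells. It was thus at least 2-fold lower with the drug in ETV6-PDGFRB cells and had a log2 ratio of -0.70 in FIP1L1-PDGFRA cells, or -1.17 with the median over its probe sets. Untreated fusion cells were above vector cells by 0.27 and 0.28 on the log2 scale, well under 2-fold. Kyat3 had log2 ratios of -0.45 and -0.45. Igtp and Irgm2 lie side by side on chromosome 11, where the nearest genes on the array, Mrpl22 and Zfp672, had imatinib ratios between -0.25 and -0.08 in the fusion lines, and 0.05 and 0.40 in vector cells. Beside the cluster of Irgm1 and Ifi47, Zfp62 had ratios of 0.10 and 0.18 in the fusion lines and Trim7 was below the floor on all arrays. Isoc1 and Smim3, the nearest genes on the array on either side of Iigp1, had imatinib ratios in the fusion lines between -0.63 and 0.00.

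Few other genes of these families and of the related Mx and atlastin GTPases could be read. Of 23 listed genes, 5 had a probe set of their own, and Gbp8 among them was below the floor on all arrays. Gbp4, Tgtp1 and Tgtp2 had only a probe set annotated to several genes and were not used. Gbp6 was 126 and 81.7 in the untreated ETV6-PDGFRB and FIP1L1-PDGFRA cells and below the floor on the other 4 arrays, at least 6.26-fold and at least 4.07-fold lower with imatinib. Mx1, an antiviral dynamin-like GTPase, was 65.6 and 95.6 without the drug and below the floor elsewhere. With imatinib it was lower by at least 3.27-fold in the first line and at least 4.76-fold in the second. Atl3, an atlastin that shapes the endoplasmic reticulum, lay between 44.2 and 68.1 on all arrays. In all, 2 and 3 of the 4 readable genes were at least 2-fold lower in the fusion lines, where 2.86% and 2.97% of all genes were, with median log2 ratios of -1.18 and -1.66. These lower values are bounds set by the floor. With the floor at the 60th percentile 1 and 1 genes passed and the medians were -0.62 and -0.58, and with the floor at the 40th percentile 3 and 3 passed, with medians of -1.74 and -2.53.

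No listed ligand gene had a signal above the floor. All 11 listed interferons and companion cytokines on the array, Ifng, Ifnb1 and 5 Ifna genes among them, were below the floor on all 6 arrays, with signals of 14.5 at most. Over all genes, only 7018 of 12393 were above it on at least 1 array. With the floor at the 40th percentile, 1 ligand gene had an imatinib ratio in ETV6-PDGFRB cells and 2 in FIP1L1-PDGFRA cells. A signal below the floor does not show that a gene is silent. The receptors and their kinases were above the floor on every array. Of 8 genes 0 were at least 2-fold lower with imatinib in either fusion line (1 in FIP1L1-PDGFRA cells with scaling to the hybridization controls). Over all genes 2.86% and 2.97% were, so a count of 0 among 8 genes does not set this list apart. Ifngr1, a chain of the interferon gamma receptor, was 81.7 and 193 in ETV6-PDGFRB cells, against 42.0 and 71.1 in FIP1L1-PDGFRA cells. It was the only one at least 2-fold higher in ETV6-PDGFRB cells, where 1.61% of genes were, and 0 of 8 passed in FIP1L1-PDGFRA cells, where 2.19% did. Ifngr2, the partner chain, had log2 ratios of 0.05 and -0.76, and Jak1 of 0.06 and 0.27. The medians of the list were 0.13 and 0.32, and with scaling to the hybridization controls -0.04 and 0.03. Ifngr1 kept ratios of 1.07 and 0.47 under that scaling, where Jak1 had -0.12 and -0.02.

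Several transcription factor genes of the pathway were lower with the drug. Of 11 readable genes, 5 (ETV6-PDGFRB) and 4 (FIP1L1-PDGFRA) were at least 2-fold lower, where 2.86% and 2.97% of all genes were, with median log2 ratios of -0.75 and -0.76. On the scale of log2(signal + 16), which takes in the genes below the floor, the medians over 14 genes were -0.18 and -0.21, with 4 and 3 genes past 2-fold. The floor at the 60th percentile gave -0.92 and -0.20, with 5 and 3. Irf1, a direct activator of these GTPases, was 403 and 105 in ETV6-PDGFRB cells, against 175 and 77.7 in FIP1L1-PDGFRA cells, and 57.7 and 45.3 in vector cells. Stat2 was 108 and 43.5, then 117 and 37.6, and 25.7 and 22.5 in vector cells. Irf9, a partner of STAT2, had log2 ratios of -1.09 and -1.06, and Batf2 was lower by at least 8.58-fold in the first line and at least 3.64-fold in the second. Stat5a had ratios of 0.50 and 0.86 and Stat5b of 0.53 and 0.88, so the signals of these genes were higher with imatinib. Stat3 had ratios of -0.75 and -0.20.

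Of 8 inhibitor genes of the pathway, 3 were at least 2-fold lower with imatinib in both fusion lines, where 1.9% of 6640 genes were. By line the counts were 3 (ETV6-PDGFRB) and 4 (FIP1L1-PDGFRA), with median log2 ratios of -0.29 and -1.12. The floor at the 60th percentile gave medians of -0.43 and -0.57, with 3 and 3 genes, and scaling to the hybridization controls -0.47 and -1.37. Usp18, which blocks the type I interferon receptor, was 277 and 24.7 in ETV6-PDGFRB cells, against 433 and 63.4 in FIP1L1-PDGFRA cells, and below the floor in vector cells. Socs1, an inhibitor of JAK kinases, was 213 and 207 in the untreated fusion lines and below the floor with imatinib, but 85.0 and 76.7 in vector cells, where the GTPases were low or unread. Cish, a STAT5 target, had log2 ratios of -2.33 and -3.15 and was 309 and 297 in vector cells. The phosphatase genes Ptpn1, Ptpn2 and Ptpn6 had ratios between -0.43 and 0.31.

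Genes that work beside the GTPases at vacuoles were mostly under 2-fold, as most genes on the array were. The autophagy conjugation system places IRG and GBP proteins on vacuoles. Of its 11 readable genes, 0 were past 2-fold in any of the 3 lines (1 was lower in ETV6-PDGFRB cells under hybridization control scaling). Over all genes, 2.86% and 2.97% were at least 2-fold lower in the fusion lines and 1.61% and 2.19% at least 2-fold higher. In vector cells these shares were 0.0599% and 0.0749%. A count of 0 among 11 genes therefore does not set this list apart. Their median log2 ratios were 0.12 and 0.14 for the fusion lines (-0.05 and -0.15 with scaling to the hybridization controls), with Atg5 at 0.12 and 0.09 and Atg16l1 at -0.90 and -0.29. Of 5 readable inflammasome and vacuole defence genes, 1 was at least 2-fold lower in both fusion lines, where 1.9% of 6640 genes were. It was Trim21, an antibody receptor inside cells (-1.42 and -1.49).

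Casp1 and Casp4, inflammatory caspases that act after GBP proteins expose bacteria, were higher in the untreated fusion lines but under 2-fold with imatinib. Casp1 was 43.2 and 46.8 in vector cells, 324 and 274 in ETV6-PDGFRB cells, against 208 and 170 in FIP1L1-PDGFRA cells. It was 7.50-fold and 4.81-fold higher in the untreated fusion lines than in vector cells, and its imatinib log2 ratios were -0.24 and -0.29. Casp4 was 3.73-fold and 3.86-fold higher without the drug and had imatinib ratios of -0.74 and -0.60. The GTPase genes were chosen for low signals with imatinib, so their lower ratios beside those of Casp1 and Casp4 are a description.

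**Figure D5:**
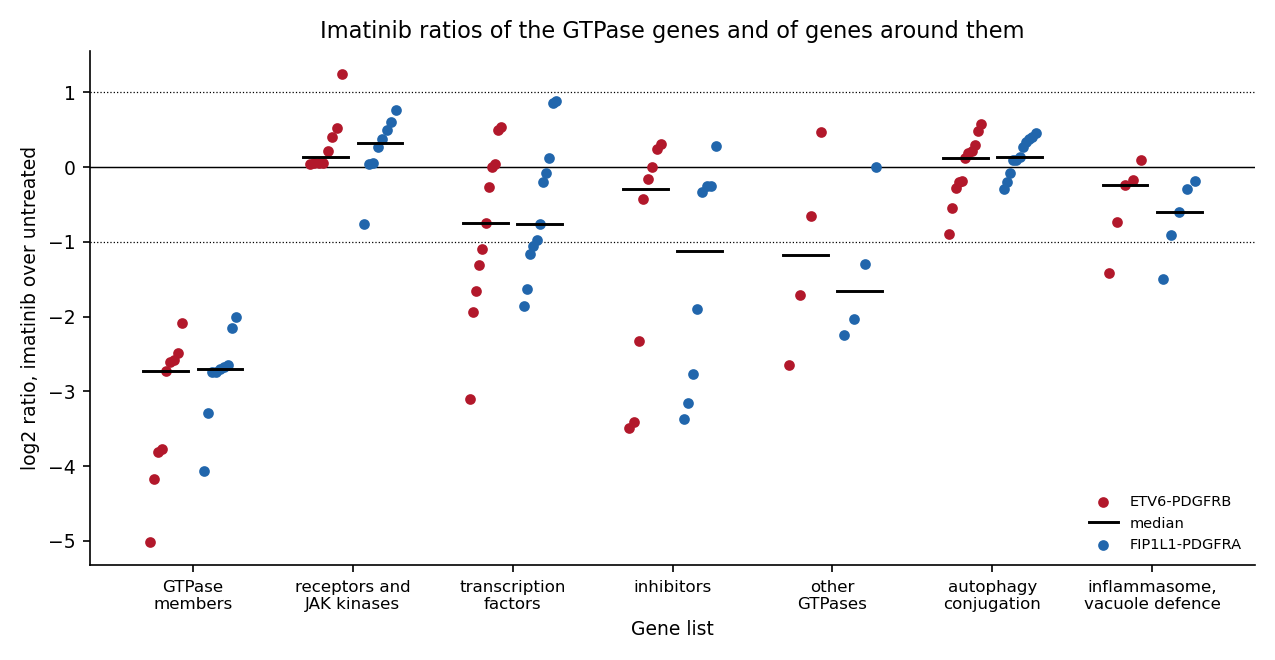
Log2 ratios of imatinib over untreated cells for the 9 members and for 6 lists of genes around them, in ETV6-PDGFRB (red) and FIP1L1-PDGFRA cells (blue), with black bars at the medians, dotted lines at 2-fold, and genes with 1 array below the floor drawn at their bound. The members have medians of -2.72 and -2.69, while the receptors and JAK kinases (0.13 and 0.32) and the autophagy genes (0.12 and 0.14) have medians near 0, of which 0.13, 0.12 and 0.14 turn negative with scaling to the hybridization controls.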

How the data were processed

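Each probe set had 1 linear signal intensity per array, as deposited; per the submitters' processing notes the authors used GCOS 1.4.0 and MAS5. Their background settings and detection calls are not given in the sources used here. No depth or replicate stands behind a value, so 1 array per group limits its precision.

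Of 22690 probe sets, 20393 had 1 gene symbol in the platform annotation, 691 had several and 1606 had none, 64 control probe sets included. RefSeq names (GRCm38.p6), matched by gene number, left every symbol as it was. Of several probe sets for a gene, the one of highest mean on the log2 scale stood for it, giving 12393 genes. The floor was the arrays' median 50th percentile (20.1), and signals under it were raised to it. A ratio was formed where at least 1 of its 2 arrays exceeded the floor; with the other array under the floor, the fold is a bound, written as at least that size. Genes were counted past 2-fold with no test.

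The members and gene lists were chosen with earlier results of these data known. The genes named are all members, the listed genes that both fusion lines moved past 2-fold the same way and those that give a list its name, the 10 genes most like the members over the arrays, and the nearest non-family neighbours on the array. The ratio and calling steps were tested on simulated data. The 7 alternatives were 3 scalings, 2 floors, a pseudocount of 16 and a median over probe sets. The work used Python 3.11.15, numpy 2.4.6 and pandas 2.3.3. Promoter windows came from RefSeq (GRCm38.p6).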

Additional observations from a re-analysis of the deposited data

Results flagged for a closer look

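Imatinib was accompanied by lower signals of 3 members in both fusion lines and by a log2 ratio of the opposite sign in IL3-grown vector cells. The vector-cell log2 ratios were 0.013 for Irgm1, 0.046 for Ifi47 and 0.28 for Gbp7, each from 1 array against 1, and the difference between lines was not tested. The SD of the log2 ratios of all genes in the vector pair was 0.19, which the ratios of Irgm1 and Ifi47 did not reach. With the median over probe sets, the Gbp7 value was 0.015.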

How the results depend on the processing

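No paired analysis was possible because each group held 1 array and no result came from a test. With 1 pair of arrays per comparison, a value was called moved when it shifted by at least 0.19 on the log2 scale, the SD of all genes' log2 ratios in the vector pair. All 9 members stayed at least 2-fold lower with imatinib in both fusion lines, and at least 2-fold higher in both untreated fusion lines than in vector cells, under the 7 alternatives. Scaling to the hybridization controls shifted the median log2 ratio of all genes by -0.17 and -0.28 for imatinib in ETV6-PDGFRB and FIP1L1-PDGFRA cells. It also shifted it by 0.22 for untreated FIP1L1-PDGFRA over vector cells, -0.22 for treated ETV6-PDGFRB over vector cells, and -0.27 and -0.16 for ETV6-PDGFRB over FIP1L1-PDGFRA without and with the drug. Under that scaling the members' median was -2.98 for imatinib in FIP1L1-PDGFRA cells, 4.41 for untreated FIP1L1-PDGFRA over vector cells and 1.39 for treated ETV6-PDGFRB over vector cells. For untreated ETV6-PDGFRB over untreated FIP1L1-PDGFRA it was 0.58, with 1 member past 2-fold in place of 4. A floor at the 60th percentile gave medians of 4.94 and 3.86 for the untreated ETV6-PDGFRB and FIP1L1-PDGFRA lines over vector cells and 1.22 for treated FIP1L1-PDGFRA, and the pseudocount of 16 gave 4.99, 3.81 and 1.52. A floor at the 40th percentile gave 4.57 for untreated FIP1L1-PDGFRA and 2.41 for treated ETV6-PDGFRB over vector cells. Members below the floor in vector cells carry bounds that follow the floor by construction; the cause of the other shifts was not tested. Signals near or under 20.1 have no order here.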
